A study of Homo sapiens with 6 samples.

Results

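The Iroquois homeobox genes IRX1, IRX2, IRX3, IRX4, IRX5 and IRX6 were followed in bulk RNA-seq of NCRM-1, a human induced pluripotent stem cell line, grown as aggregates in bioreactors. Members were taken as the rows whose Ensembl identifier maps to these 6 symbols in GENCODE 44, and all 6 were found among the 19977 genes listed for each library. The cells, wild type, were seeded as single cells and cultured for 4 days in E8 medium alone (E8 control, 3 libraries) or in E8 with 10 mg/ml polyethylene glycol (PEG) and 0.1 µg/ml heparin sodium salt (HS) (PEG and HS, 3 libraries), with 50% of the medium replaced on day 2. The comparison asks how the additives bear on the transcripts of a stem cell culture. The study chose them with a model that weighed OCT4 expression, growth and aggregate stability together, the last to limit fusion of aggregates. All libraries come from a single cell line, the treatment text of the labels describes the additives for all 6 libraries although 3 are marked as control, and the titles carry a single bioreactor letter per medium. If each letter is a single vessel, medium and vessel cannot be told apart, and p-values measure the spread between these samples, which may be technical.

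Iroquois genes encode homeodomain transcription factors of the TALE class, named for a loop of extra residues in the homeodomain, the part that binds DNA. They were first known from the fly and, in vertebrates, they lie in clusters of 3 genes, IRX1, IRX2 and IRX4 on chromosome 5 and IRX3, IRX5 and IRX6 on chromosome 16. They are known for subdividing the neural plate and neural tube, where Wnt, BMP, retinoid and hedgehog signals set the borders of their domains, and for later roles in heart, retina and limb. IRX4 is best known from ventricular heart muscle, IRX3 and IRX5 from the neural tube and the heart's conduction, and IRX6 from retinal interneurons.

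Because members of a family can exchange reads, the stretch in which their coding sequences are most alike is shown here, read 5′ to 3′ from GENCODE 44 transcripts (GRCh38). It is 60 bases long, lies within the homeobox, and capitals mark the 3 positions (15, 42 and 48 from the 5′ end) at which the 6 genes do not all have the same base. Each of these positions is the 3rd base of a codon.
IRX1 (chr5:3599423-3599482, plus strand, exon 2 of 4): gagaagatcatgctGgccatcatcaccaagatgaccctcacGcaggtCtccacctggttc
IRX2 (chr5:2749542-2749601, minus strand, exon 2 of 4): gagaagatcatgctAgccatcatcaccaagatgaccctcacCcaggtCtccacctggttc
IRX3 (chr16:54285347-54285406, minus strand, exon 2 of 4): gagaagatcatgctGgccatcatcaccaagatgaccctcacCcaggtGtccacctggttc
IRX4 (chr5:1879661-1879720, minus strand, exon 6 of 7): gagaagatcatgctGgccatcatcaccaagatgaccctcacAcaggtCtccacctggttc
IRX5 (chr16:54932681-54932740, plus strand, exon 2 of 3): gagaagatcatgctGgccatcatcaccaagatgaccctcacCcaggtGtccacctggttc
IRX6 (chr16:55327704-55327763, plus strand, exon 4 of 6): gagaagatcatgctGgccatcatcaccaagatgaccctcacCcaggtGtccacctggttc
Any pair of members shared at least 58 of these 60 bases, and IRX3, IRX5 and IRX6, the chromosome 16 genes, were identical across all 60. The longest identical run of coding sequence was 134 bases, between IRX3 and IRX5, and the shortest of the pairs' longest runs was 32 bases, between IRX2 and IRX6. Of the 31-base words of each gene's transcripts, 1.29% (IRX6) to 3.70% (IRX5) also occur in transcripts of other genes. How reads that match several genes were counted is not given in the sources used here.

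The libraries held 26991279 to 36185138 counts on genes, and the ranges of the media overlapped. The labelled cell type was checked on 10 pluripotent stem cell markers, which summed to 10242 to 10443 CPM in the PEG and HS libraries and to 10210 to 10377 CPM in the controls. None of the 10 was at 0, with the additives 5 were higher and 3 lower (edgeR), and their median log2 fold change was 0.08. CPM is the count of a gene scaled to the size of its library with edgeR's TMM factors, with no correction for gene length. Of 16505 genes with at least 10 counts over the 6 libraries, 4173 (25.3%) were called at an adjusted p under 0.05 (quasi-likelihood test of edgeR, Benjamini-Hochberg adjusted over all genes tested), 12.2% higher and 13.1% lower in PEG and HS.

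All 6 Iroquois genes passed the filter on low counts. IRX1, IRX2, IRX3 and IRX5 were lower in PEG and HS, IRX4 was higher, and IRX6, with 18 counts in all, was not called. Thus 5 of 6 members were called, 4 of them lower, beside 25.3% of all genes tested. The median log2 fold change of the 6 members was -1.53, and that of all genes tested was 0.003. Of the members called, 4 also had a log2 fold change under -1, which 1.78% of all genes tested had (2.02% in either direction), but IRX1 lay at that limit and was at -0.90 to -1.06 in other settings. The CPM values of the media did not overlap for any of the 6 members, 5 of them lower in PEG and HS, beside 39.3% of all genes tested without overlap and 19.8% lower without overlap. In bulk RNA, fewer cells that make a transcript and less transcript per cell cannot be told apart.

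**Figure D1:**
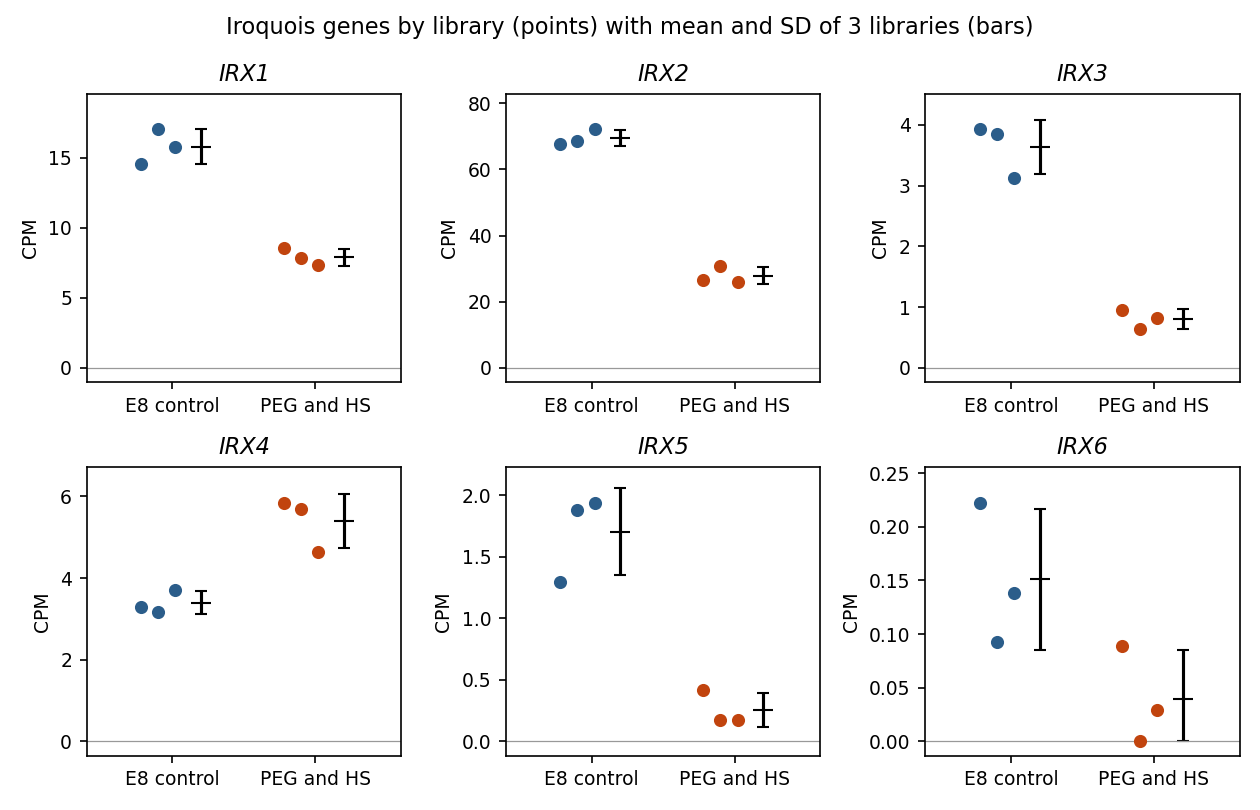
CPM of each Iroquois gene (vertical axes, linear and separate for each gene) in the 3 E8 control and the 3 PEG and HS libraries (points), with the mean and SD of 3 libraries (black bars, cut at 0). The libraries of the media are apart for IRX1, IRX2, IRX3, IRX4 and IRX5, with IRX4 the only member that is higher in PEG and HS, whereas IRX6 stays under 0.25 CPM throughout.

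IRX2 (ENSG00000170561, chromosome 5, 2745845 to 2751677 of GRCh38, minus strand) was the member with the most counts, 9308 of them over the 6 libraries. Its level was 26.7, 30.8 and 26.0 CPM in the PEG and HS libraries, against 67.6, 68.7 and 72.1 CPM in the E8 control libraries. The highest treated library lay well below the lowest control library. The means were 27.8 ± 2.56 CPM (SD, n = 3) and 69.5 ± 2.38 CPM (SD, n = 3), 2.50-fold lower with the additives (log2 fold change of -1.33 with an SE of 0.053, adjusted p = 7.02e-11 in edgeR). IRX2 marks neural progenitors and parts of the developing limb and lung. No annotated gene overlaps it.

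IRX1 (ENSG00000170549, chromosome 5, 3595832 to 3601403, plus strand), which shares much of its known pattern with IRX2, was at 8.54, 7.82 and 7.36 CPM in the PEG and HS libraries, against 14.6, 17.1 and 15.8 CPM in the controls. The media did not overlap. Means of 7.91 ± 0.596 and 15.8 ± 1.24 CPM (SD, n = 3 each) gave a log2 fold change of -1.002 with an SE of 0.079 (adjusted p = 1.66e-07, edgeR).

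IRX3 (ENSG00000177508, chromosome 16, 54283304 to 54286787, minus strand), a repressor that helps to place progenitor domains of the neural tube, fell further. The PEG and HS libraries had 0.949, 0.637 and 0.827 CPM, from 32, 18 and 28 counts, and the controls 3.93, 3.85 and 3.13 CPM, from 106, 125 and 113 counts. Every treated library was below 1 CPM and every control library above 3 CPM. The level was 4.52-fold lower in PEG and HS (0.804 ± 0.157 against 3.64 ± 0.439 CPM, SD, n = 3 each, log2 fold change -2.15, SE 0.19, adjusted p = 6.43e-07, edgeR).

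IRX5 (ENSG00000176842, chromosome 16, 54930865 to 54934485, plus strand), the neighbour of IRX3, had the largest change of the members called. Its counts were 14, 5 and 6 in the treated and 35, 61 and 70 in the control libraries, or 0.415, 0.177 and 0.177 CPM against 1.30, 1.88 and 1.94 CPM. The lowest control library still had more than the highest treated one. The mean level was 6.65-fold lower in PEG and HS (0.256 ± 0.137 against 1.705 ± 0.354 CPM, SD, n = 3 each, log2 fold change -2.70, SE 0.34, adjusted p = 2.64e-05, edgeR). With 25 counts in all in the treated libraries, the size of this change is less certain than for IRX1 and IRX2, and it was -3.25 without PEG and HS replicate 1.

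IRX6 (ENSG00000159387, chromosome 16, 55324203 to 55330756, plus strand) was close to absent. The treated libraries held 3, 0 and 1 counts of it and the controls 6, 3 and 5, where a count of 0 allows up to 3. The media met at 3 counts and were barely apart in CPM, with 0.0890 CPM in the highest treated library and 0.0923 CPM in the lowest control library. The log2 fold change was -1.74 (SE 0.85, adjusted p = 0.158, edgeR), so that no difference was detectable at this depth.

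IRX4 (ENSG00000113430, chromosome 5, 1877413 to 1887236, minus strand) went the other way. The treated libraries held 197, 161 and 157 counts of it and the controls 89, 103 and 134, or 5.84, 5.70 and 4.64 CPM against 3.30, 3.17 and 3.71 CPM. All treated libraries lay above all control libraries. The level was 1.59-fold higher in PEG and HS (5.39 ± 0.657 against 3.39 ± 0.284 CPM, SD, n = 3 each, log2 fold change 0.66, SE 0.12, adjusted p = 0.00104, edgeR). A long non-coding gene on the opposite strand, IRX4-AS1, overlaps IRX4, and unnamed opposite-strand non-coding genes overlap IRX1, IRX3 and IRX6. The libraries were stranded, but whether the counting used strand is not given in the sources used here, so reads of a gene and its antisense partner may not have been kept apart. The antisense genes were not analysed here.

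Ranked by log2 fold change among the 16505 genes tested, IRX5 was number 70 from the lowest, IRX3 number 119, IRX2 number 322 and IRX1 number 538, whereas IRX4 was number 435 from the highest. Genes with few counts take many of the extreme ranks. IRX2 stands out among these by its level as well, with a mean above 79.6% of all genes tested in E8 control and above 58.5% in PEG and HS. IRX3 moved from above 27.7% to above 16.8%, and IRX4 from above 27.1% to above 32.3%.

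**Figure D2:**
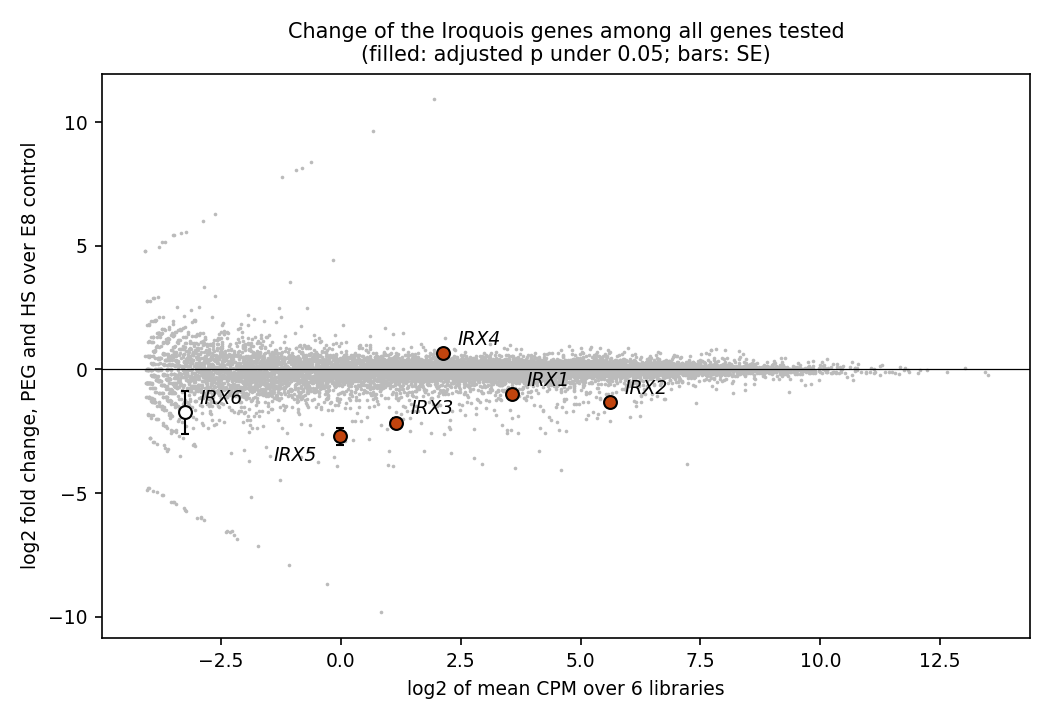
Log2 fold change of PEG and HS over E8 control (vertical axis) against the log2 of the mean CPM over the 6 libraries (horizontal axis) for all 16505 genes tested (grey) and the Iroquois genes (circles, filled where the adjusted p is under 0.05, bars for the SE). IRX1, IRX2, IRX3 and IRX5 lie below the band of most genes, IRX4 lies at its upper edge, and IRX6 is near the low end of the counts with a wide bar.

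To compare the genes with each other, CPM were divided by the length of their merged exons in kilobases (2080 bases for IRX1 to 3399 bases for IRX2), written here as RPKM. In E8 control the order of the mean levels was IRX2 (20.4 RPKM), IRX1 (7.60 RPKM), IRX3 (1.24 RPKM), IRX4 (1.14 RPKM), IRX5 (0.5999 RPKM) and IRX6 (0.0512 RPKM). IRX3 and IRX4 did not differ beyond their spread there, since their ranges overlapped and their order was turned in replicate 3. The other neighbours in the order did not overlap. In PEG and HS the order was the same in each of the 3 libraries, with IRX2 at 8.19 RPKM, IRX1 at 3.80 RPKM, IRX4 at 1.81 RPKM, IRX3 at 0.274 RPKM, IRX5 at 0.0902 RPKM and IRX6 at 0.0134 RPKM, and no neighbours overlapped. The place of IRX3 and IRX4 was thus the only one to change, from a ratio of IRX3 to IRX4 near 1 to IRX4 6.62-fold above IRX3.

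The summed level of the 6 genes was 29.9 to 31.9 RPKM in E8 control and 13.1 to 15.0 RPKM in PEG and HS. IRX2 made up 64.2% to 66.6% of this sum in E8 control and 54.4% to 60.3% in PEG and HS. The share of IRX4 was 3.39% to 3.92% in E8 control and 11.9% to 13.6% in PEG and HS, whereas IRX3 went from 3.35% to 4.48% down to 1.45% to 2.24%. IRX1 held 23.5% to 26.0% in E8 control and 25.1% to 28.5% in PEG and HS, so that its ranges overlapped.

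**Figure D3:**
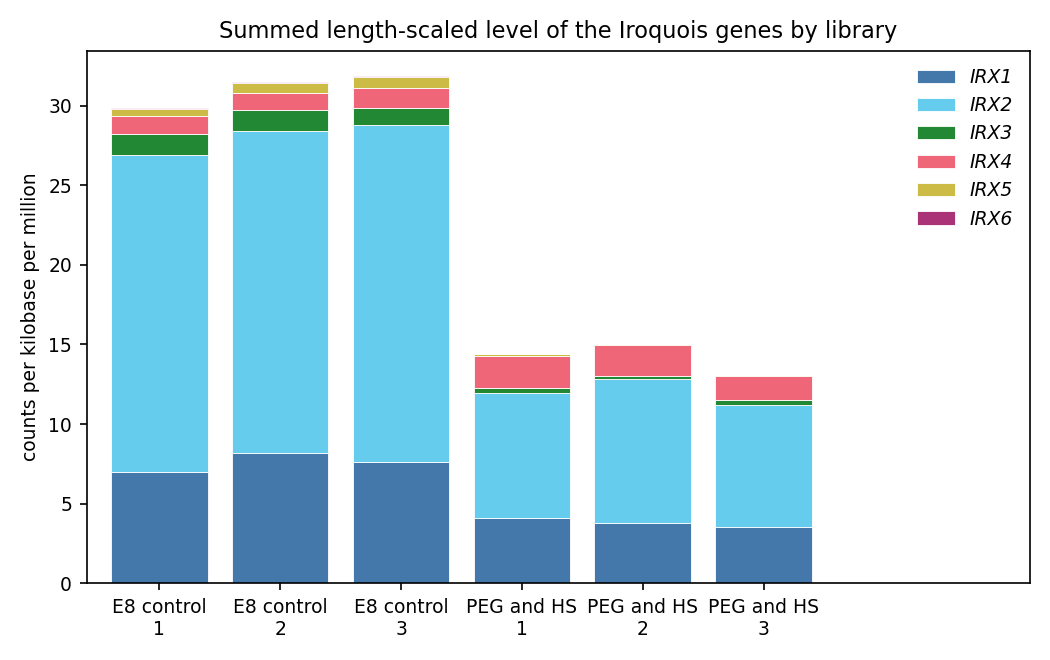
RPKM (CPM per kilobase of merged exons, vertical axis) of the 6 Iroquois genes stacked for each library (bars start at 0, colours mark the genes). The 3 E8 control bars reach 29.9 to 31.9 and the 3 PEG and HS bars 13.1 to 15.0, with IRX2 the largest part in each and IRX4 the larger of the minor parts in PEG and HS.

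Whether members changed by different amounts was read from the log2 ratio of their counts within each library, with 0.5 added to each count. For 10 of the 15 pairs the ratios of the media did not overlap, each with an exact two-sided permutation p = 0.1 (0.15 adjusted over the 15 pairs), the smallest that 3 libraries against 3 can give. For pairs that hold IRX4 this followed from the member values, since IRX4 was higher and each other member lower without overlap. Those pairs therefore restate the member directions. The share of other gene pairs without overlap was not computed. The widest shift was in the ratio of IRX4 to IRX5, by 3.41 (SE 0.375), followed by that of IRX3 to IRX4. The log2 ratio of IRX3 to IRX4 was -2.60, -3.13 and -2.47 in PEG and HS and 0.25, 0.28 and -0.24 in E8 control, a difference of -2.83 (SE 0.263). The ratio of IRX2 to IRX4 differed by -1.98 (SE 0.101) and that of IRX1 to IRX2 by 0.33 (SE 0.115), the smallest shift among the 10. The ratio of IRX3 to IRX5, the closest pair in sequence, overlapped between the media (difference 0.58, SE 0.384, exact permutation p = 0.2, 0.25 adjusted). The other pairs that overlapped all held IRX6.

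By cluster, IRX1, IRX2 and IRX4 on chromosome 5 summed to 38.03 to 44.3 CPM in the treated libraries and 85.4 to 91.6 CPM in the controls, a log2 ratio of -1.11. IRX3, IRX5 and IRX6 on chromosome 16 summed to 0.814 to 1.45 CPM and 5.21 to 5.82 CPM, a log2 ratio of -2.32. A read moved from any of these 3 genes to another of them would leave this second sum unchanged. Reads left out of the counts, or exchanged with the chromosome 5 genes, could alter it, which was not tested. Both sums were lower in every PEG and HS library (exact two-sided permutation p = 0.1 each, the smallest possible here). Within the chromosome 5 cluster the start sites of IRX4 and IRX2 are 864 kb apart and those of IRX2 and IRX1 are 844 kb apart, and no other gene of the files starts between them.

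Other genes near the clusters were measured to see whether the shift extended along the chromosome. Of the 12 genes that start within 1 Mb of the outer Iroquois start sites on chromosome 5, 10 were tested, and 5 were called higher and 2 lower, with log2 fold changes between -0.13 and 0.41, beside 12.2% of all genes tested called higher and 13.1% lower. All of them lie on the side of IRX4. The called ones were TERT, the catalytic subunit of telomerase (log2 fold change 0.41, SE 0.060, adjusted p = 0.000116, edgeR), NKD2, an antagonist of Wnt signals (0.36), TRIP13 (0.17), CLPTM1L (0.16), the mitochondrial ribosomal protein gene MRPL36 (0.15), LPCAT1 (-0.11) and NDUFS6 (-0.12). On chromosome 16, 9 of 11 neighbours were tested and 2 called. MMP2, a matrix metalloprotease gene whose start lies 65.5 kb from that of IRX6, was higher (log2 fold change 0.28, SE 0.036, adjusted p = 2.8e-05, edgeR) and GNAO1 lower (-0.12). FTO and RPGRIP1L, whose introns are known to hold enhancers of IRX3, had means of 53.9 and 18.2 CPM in the treated libraries, against 56.5 and 18.3 CPM in the controls (adjusted p = 0.303 and 0.955). No neighbour on either chromosome had a log2 fold change as far from 0 as that of any Iroquois gene, IRX4 included.

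**Figure D4:**
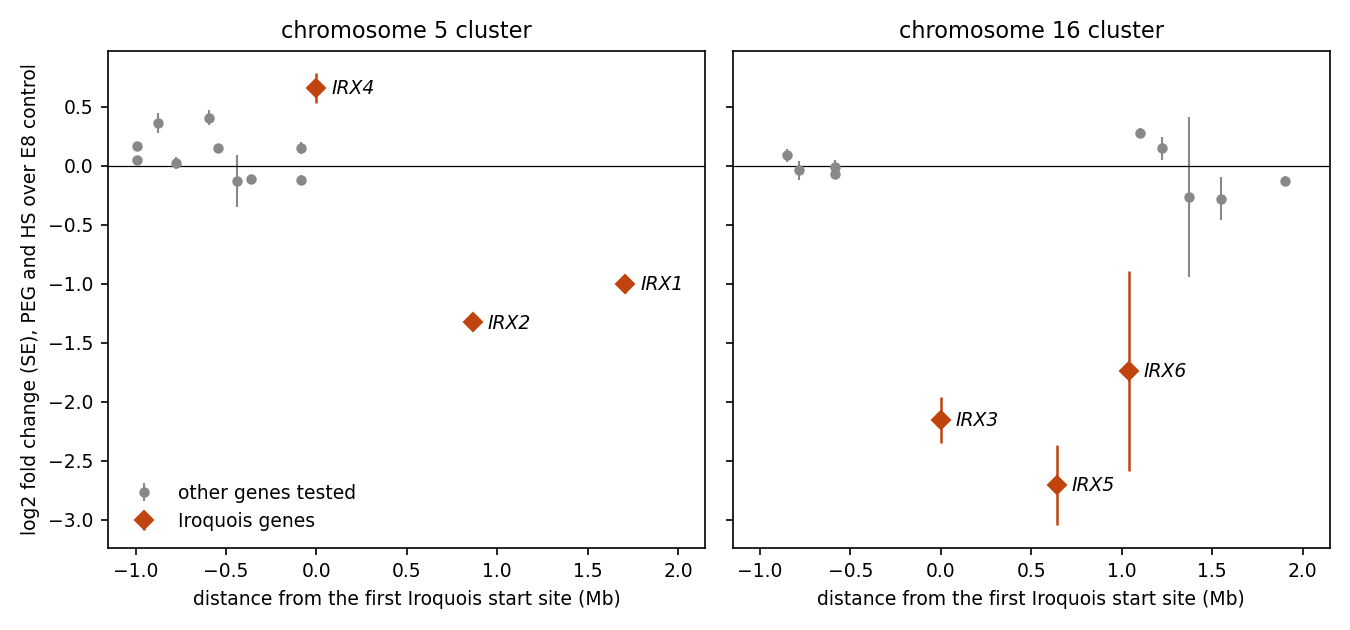
Log2 fold change with SE (vertical axis) by distance in Mb from the first Iroquois start site of each cluster (horizontal axis) for the Iroquois genes (diamonds) and the other genes tested within 1 Mb (grey points). On chromosome 5 IRX4 lies at 0.66 and IRX2 and IRX1 at -1.33 and -1.002, on chromosome 16 the 3 Iroquois genes lie between -1.74 and -2.70, and the other genes lie between -0.28 and 0.41.

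For IRX1, IRX2 and IRX4, RefSeq windows of the bases just before the start site (GRCh38.p14) are shown because these neighbours in a cluster moved in opposite directions. IRX3, IRX5 and IRX6 have no entry. IRX4 has 3 windows, of which the one just before its annotated start is shown. Capitals mark matches, on either strand, to short motifs that are spelled out after the sequences.
IRX1 (chr5:3595582-3595831, plus strand): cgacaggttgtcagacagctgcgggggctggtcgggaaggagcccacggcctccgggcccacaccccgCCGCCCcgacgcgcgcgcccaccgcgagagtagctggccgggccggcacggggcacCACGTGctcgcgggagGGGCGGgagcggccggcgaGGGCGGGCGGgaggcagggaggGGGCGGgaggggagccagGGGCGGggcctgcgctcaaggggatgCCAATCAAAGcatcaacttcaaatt
IRX2 (chr5:2751678-2751927, minus strand): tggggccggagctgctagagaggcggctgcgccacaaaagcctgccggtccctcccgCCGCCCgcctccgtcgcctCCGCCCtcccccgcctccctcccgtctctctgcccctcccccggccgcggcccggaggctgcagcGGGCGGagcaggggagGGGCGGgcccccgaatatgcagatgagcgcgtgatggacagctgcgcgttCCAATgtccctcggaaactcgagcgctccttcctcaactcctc
IRX4 (chr5:1887237-1887429, minus strand): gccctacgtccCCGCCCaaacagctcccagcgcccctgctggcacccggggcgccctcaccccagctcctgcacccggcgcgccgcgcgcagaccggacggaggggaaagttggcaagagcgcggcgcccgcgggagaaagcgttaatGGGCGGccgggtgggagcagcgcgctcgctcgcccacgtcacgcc
The windows had a GC content of 75.2%, 72.8% and 75.6% for IRX1, IRX2 and IRX4, where the median of 34788 RefSeq windows is 58.0%. The GC box, searched as GGGCGG, was found 6 times before IRX1, with a pair of overlapping matches, 4 times before IRX2 and 2 times before IRX4, and 42.6% of all 250-base windows hold it (33.6% of windows cut to the 193 bases of IRX4). The CCAAT box was found once each before IRX1 and IRX2, and 32.0% of all windows hold its letters. An E-box, searched as CACGTG and held by 6.31% of windows, was found once, before IRX1. A match to the TCF/LEF motif, searched as CTTTGA and held by 11.2% of windows, was also found before IRX1 and overlaps the end of its CCAAT box. The TATA box, searched as TATAAA and held by 10.8% of windows, was found in none of these windows. Nor was the core of retinoid receptor sites, searched as AGGTCA and held by 4182 of the 34788 windows, or the core of many homeobox sites, searched as TAATTA and held by 4.37% of windows. These matches describe the letters only.

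Across the 6 libraries, the genes with the pattern most like each member were found by Pearson's r of log2 CPM (0.1 added) among 13457 genes with at least 1 CPM in every library of a medium. All points share the libraries, and a gap between the media alone gives a high r, so the values are a description. DBNDD1 and LFNG, a modifier of Notch receptors, followed IRX1 (r = 0.9983 and 0.998). NUMA1, STC1 and CDC42EP4 followed IRX2 (r of 0.9988 or more). CD55, TRIM22 and ALDH7A1 followed IRX3, and LACTB, FKBPL and ZNF185 followed IRX5. FLT4, a receptor for VEGF-C, TMEM33 and CACNG5 followed IRX4, and each of these was higher in PEG and HS by a log2 fold change of 0.34, 0.19 and 0.29. None of the genes named here changed by as much as the member it followed.

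Among the other TALE genes, the nearest relatives and partners of Iroquois proteins, 7 of 12 were called, all lower in PEG and HS, with a median log2 fold change of -0.17 over the 12, where 13.1% of all genes tested were called lower. MEIS1 and MEIS2, which bind DNA beside HOX proteins, fell most (log2 fold changes -1.54, SE 0.37, and -1.50, SE 0.19), followed by PKNOX2 (-1.38, SE 0.13). These were at low levels, 0.916 CPM in E8 control for MEIS1, 2.94 CPM for MEIS2 and 5.84 CPM for PKNOX2. MEIS1 had 6, 8 and 16 counts in the treated and 25, 34 and 28 in the control libraries. PKNOX1, PBX4, TGIF1, TGIF2 and MKX were not called, with log2 fold changes between -0.10 and 0.09.

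Genes of the signals known to place Iroquois domains, called readout genes here, were counted in lists. Some lists mix components of a pathway with its targets. The hedgehog list, for example, holds the ligand SHH, SMO, the co-receptors GAS1 and BOC and the GLI factors. A count of calls therefore does not measure the strength of a signal. Of 10 hedgehog readout genes, 7 were called, all lower, with HHIP (-1.24), GAS1 (-0.97) and PTCH1, the receptor and feedback inhibitor (-0.68), lowest on the log2 scale and a median of -0.46. Of 9 retinoid readout genes tested, 5 were lower and 1 higher (RARA, log2 fold change 0.17, not called with DESeq2 or without PEG and HS replicate 1 or 2 or Control replicate 2 or 3), and the lowest were CYP26A1 (-3.99) and CYP26C1 (-3.56), enzymes that break down retinoic acid, and DHRS3 (-1.86), with a median of -0.47. Of 10 BMP readout genes, 5 were lower and 2 higher, with ID4 (-2.13), MSX2 (-1.22) and ID1 (-1.20) lowest and SMAD7 highest at 0.73 and a median of -0.71. The 10 Wnt readout genes split into 3 lower and 2 higher, with DKK1 at -1.50, LEF1 at -0.52 and NKD2 at 0.36 and a median of -0.15, and the number called fell to 3 without Control replicate 2. In contrast, 9 of 10 FGF readout genes were called, all higher, led by IL17RD (0.81), SPRY4 (0.79) and DUSP6 (0.79), feedback inhibitors of the pathway, with a median of 0.55. The median of all genes tested was 0.003, as above, and 25.3% of them were called. Counts of DKK1 were low, with 4, 9 and 11 in the treated and 14, 32 and 23 in the control libraries (SE 0.43). Those of MSX2 were 8, 14 and 11 against 21, 28 and 29 (SE 0.35). CYP26C1 had 4, 6 and 3 counts in the treated and 43, 60 and 54 in the control libraries (SE 0.35).

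Markers of neural cells were counted next, beside 12.2% of all genes tested called higher and 13.1% lower. Of 18 neural progenitor genes 12 were called lower, 1 higher (POU3F1) and 5 not at all (median log2 fold change -0.48), and their sum was 1226 to 1261 CPM in the treated libraries and 1507 to 1552 CPM in the controls, with none at 0. SOX21 (-2.50), LHX5 (-2.37) and SOX1 (-1.70), early neural transcription factors, were the lowest of these in log2 fold change. Of 19 neural patterning factors tested, 6 were lower, 2 higher and 11 not called (median -0.93), with sums of 62.8 to 67.5 CPM and 135 to 142 CPM. FEZF1 (-2.45), OTX2 (-2.10), both of the anterior neural plate, and FEZF2 (-1.51) had the largest changes among those called, whereas SIX6 and GBX2 were higher (0.85 each). OTX2 was the largest part of these sums, with means of 18.6 CPM in the treated libraries and 79.4 CPM in the controls. FEZF2 had 6, 10 and 5 counts in the treated and 23, 23 and 14 in the control libraries. The number called in this list fell from 8 to 7 without PEG and HS replicate 1 or 3 or Control replicate 1 or 2. Among genes of the midbrain and ventral neural tube, EN1, EN2, PAX2, NKX6-1 and OLIG2 had means under 0.4 CPM in both media and were not called. PAX7 of the same list, also not called, had means of 3.51 CPM in the treated libraries and 3.46 CPM in the controls. The part of neural cells in the Iroquois differences was not tested.

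Lists for heart muscle, surface ectoderm, mesoderm and endoderm were read against the 25.3% of all genes tested that were called (12.2% higher and 13.1% lower). The 10 heart muscle markers summed to 0.495 to 1.18 CPM in the treated libraries and 1.69 to 1.97 CPM in the controls, with MYL2, a ventricular myosin light chain, at 0 in every library and NKX2-5 under 0.1 CPM on average in both media. The largest part of this sum was TNNT2, with a mean of 0.422 CPM in the treated libraries and 1.32 CPM in the controls, whereas the means of TBX5, TBX20 and MYL7 were higher in PEG and HS, from at most 8 counts in a library and without a call. Of the 6 heart markers tested, TNNT2 (-1.63) and HAND1 (-3.51) were called lower (median of the 6 tested -0.31), and 1 was called with DESeq2 or without any single one of PEG and HS replicates 2 and 3 and Control replicates 1 and 2. HAND1 was near the floor, with 1, 0 and 0 counts in the treated and 6, 7 and 2 in the control libraries (SE 1.09). Surface ectoderm markers summed to 2.22 to 2.85 CPM in the treated libraries and 11.2 to 12.1 CPM in the controls, with KRT14 at 0, and 3 of 8 tested were lower, DLX5 (-3.38), TFAP2A (-3.30) and GRHL3 (-1.69), with a median of -1.42. DLX5 was also near the floor, with 2, 1 and 0 counts in the treated and 5, 18 and 12 in the control libraries (SE 0.76). DESeq2 called 2 markers of this list. TFAP2A, an early regulator of non-neural ectoderm, fell from 6.00 ± 0.230 to 0.603 ± 0.269 CPM (SD, n = 3 each, adjusted p = 9.84e-09, edgeR). Mesoderm markers summed to 66.5 to 69.6 CPM and 61.4 to 65.5 CPM, nearly all of it KDR, with 1 of 8 higher (KDR), 1 lower (TBX6), MSGN1 at 0 and a median of -0.08. Without Control replicate 3 the number called was 1, and without PEG and HS replicate 1 it was 3. Endoderm markers summed to 4.95 to 5.63 CPM and 6.79 to 8.71 CPM, and edgeR and DESeq2 called 0 of 8, with 3 at an unadjusted p under 0.05 in edgeR and a median of -0.55. Without PEG and HS replicate 3 or Control replicate 3, 1 was called. The part of these cell types in the Iroquois differences was not tested.

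**Figure D5:**
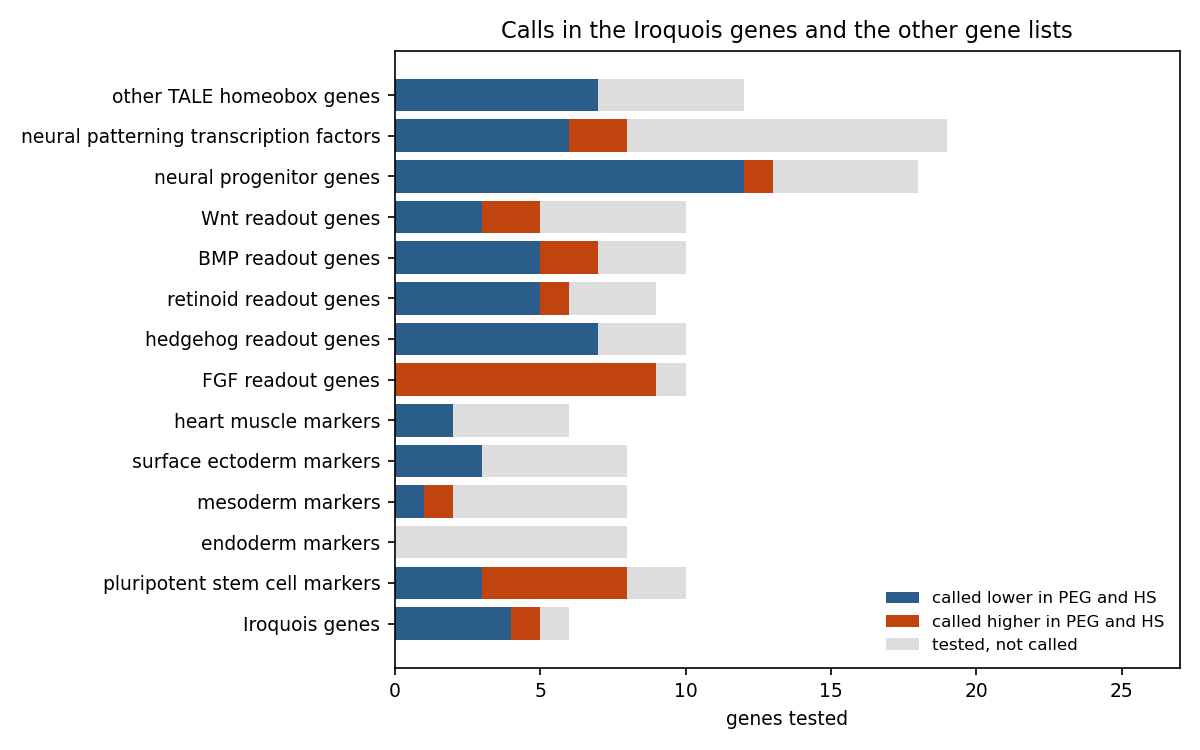
Number of genes tested in each list (horizontal axis) that edgeR called lower (blue) or higher (orange) in PEG and HS at an adjusted p under 0.05, or did not call (grey). The Iroquois genes have 4 lower, 1 higher and 1 not called, the FGF readout genes are the list with 9 called higher, and the neural progenitor genes have the most called lower, 12 of 18.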

How the data were processed

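Bulk RNA of 6 libraries was compared, 3 in PEG and HS and 3 in E8 control, grouped by the treatment given in the labels. The authors trimmed reads with Trim Galore 0.6.7, mapped them to GRCh38 with STAR 2.6.1 inside an nf-core pipeline (per the labels and methods), and deposited raw counts per gene, with no filter on low counts. The counting tool, its use of strand and the annotation release are not given in the sources used here. Of 19977 identifiers, 19916 matched GENCODE 44, 19869 of them protein-coding.

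Genes with 10 or more counts in total entered edgeR 4.0.16 (TMM, glmQLFit, glmQLFTest, no covariate, R 4.3.3), with Benjamini-Hochberg adjustment. SE is the size of the log2 fold change divided by the root of F. The methods name DESeq2, which was an alternative (1.42.0), as were limma-voom (limma 3.58.1), other normalizations and filters, a correction for GC content and length, the replicate number as a block, and each library left out. The fits of edgeR, DESeq2 and limma-voom were tested on simulated counts, and the other steps were not. With 200 of 16372 genes changed 2-fold, edgeR recovered 96% and DESeq2 94.5%, and 5.88% and 0.526% of their calls were false. The changed genes were drawn only from genes above a minimum mean count that IRX6 did not reach. Called genes named here, among them MEIS1, MSX2, DKK1, FEZF2, DLX5 and HAND1, also lay under this minimum. These rates therefore do not cover such genes. Each count interval here covers counting error only.

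The members and the gene lists were chosen with earlier results of these data known. Named genes were the 6 members, the 3 called genes with the largest change in each list, the 3 genes most like each member with enough counts and the called neighbours. Others were named after their values were seen. Not every gene named by this rule is reported here.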

Additional observations from a re-analysis of the deposited data

How the results depend on the processing

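IRX1, IRX2, IRX3, IRX4 and IRX5 had the same direction and were called with DESeq2, limma-voom, the other normalizations, filters and threshold, the GC content and length correction, and each library left out. The number of Iroquois genes called stayed at 5 in all 16 comparisons. Without single libraries the log2 fold changes ranged from -1.06 to -0.95 (IRX1), -1.40 to -1.28 (IRX2), -2.29 to -2.02 (IRX3), 0.60 to 0.76 (IRX4) and -3.25 to -2.48 (IRX5). IRX6 was not called in any setting (-2.92 without PEG and HS replicate 1, -1.26 without PEG and HS replicate 2), DESeq2 gave it no adjusted p, and the filter of 1 CPM in 3 libraries left it out. The depth limits IRX5 and IRX6 most.

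Same-numbered libraries hardly deviated together (correlations 0.004 to 0.014), although 4 of 6 libraries were closest to their own number. These values cannot show whether libraries of the same number share a step of sampling or preparation. With the replicate number as a block, the log2 fold changes of IRX1 to IRX5 were -0.999, -1.32, -2.16, 0.66 and -2.70, 4444 genes were called in place of 4173, and 1 neural progenitor gene lost its call (12 in place of 13), with no other list count and no member's call changed.

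At an adjusted p under 0.01, 2601 of all genes were called. The GC content and length correction called 2952 higher and 1942 lower, in place of 2016 and 2157. With DESeq2 the numbers called were 1 in place of 2 for heart muscle, 2 in place of 3 for surface ectoderm, 5 in place of 6 for retinoid (its only higher call lost) and 12 in place of 13 for neural progenitor genes. Without single libraries, the numbers called ranged from 3 to 5 for the Wnt list, 1 to 2 for heart muscle, 1 to 3 for mesoderm and 0 to 1 for endoderm, the last 1 without PEG and HS replicate 3 or Control replicate 3. The causes were not tested.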
